A study of Mus musculus with 36 samples.

Results

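Untreated cells of the mouse lymphoma line 621 were compared with untreated cells of the line AH47A, across all genes. The comparison used the 6 untreated libraries labelled 621 and the 6 untreated libraries labelled 47A, paired by the construct the cells expressed, which makes 12 of the 36 libraries of the series. Both lines carry the Em-myc background, a Myc transgene under an immunoglobulin heavy chain enhancer that gives B cell lymphomas. In each line 1 library came from cells expressing a negative control, and 1 each from cells expressing the TRP53 mutants labelled G280, I192S, R246Q, R270H and V170M, which the design text describes as human proteins. The other libraries of the series came from the line 287 and from cultures treated with 5 μM nutlin-3a for 12 hours, an inhibitor of the binding of MDM2 to p53. The treated cultures also had the caspase inhibitor QVD-OPH, and the labels do not say whether the untreated ones had it. Each line is a single line, the labels name no separate cultures of a construct, and the 6 libraries of a line differ by construct. The p-values therefore measure the spread between these cultures of 2 lines, not the spread between tumours.

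B cells mature through ordered stages. Pro-B and pre-B cells express the recombinase RAG, the surrogate light chain made by Igll1 and Vpreb1, and the interleukin 7 receptor. Immature and mature B cells carry a complete immunoglobulin receptor and gain MHC class II, IgD and receptors for homing and T cell help. Em-myc tumours can arise at either the pre-B or the B cell stage. Their p53 pathway can be disabled by mutation of Trp53 or loss of the Cdkn2a product ARF, which restrains MDM2.

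Total counts were 6739686 to 9598107 per AH47A library and 7791101 to 10718302 per 621 library, and mitochondrial genes took 4.71% to 5.39% of the counts. Levels are given as counts per 1000000 of the scaled library total (CPM), so they are not comparable between genes of different length. Of 27179 genes, 10980 passed the filter on low counts. At an adjusted p under 0.05, 7053 of them (64.2%) differed between the lines: 3524 were higher in 621 (32.1%) and 3529 lower (32.1%). Called beyond 2-fold were 1182 genes (10.8%), of which 553 were higher (5.04%) and 629 lower (5.73%). In 4941 genes (45%) the 6 libraries of one line did not overlap the 6 of the other. The median log2 difference over all genes tested was -0.0046 and the median of its size was 0.27, and each list below is set against these values. The defining markers of the B lineage were present in both lines: Cd79a, a signalling chain of the B cell receptor, ranged from 201 to 241 CPM in AH47A and from 290 to 421 CPM in 621. Pax5, the factor that fixes B cell identity, ranged from 121 to 134 CPM in AH47A and from 106 to 130 CPM in 621, and its difference did not pass the test (log2 -0.10 ± 0.05, SE, adjusted p = 0.113).

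**Figure D1:**
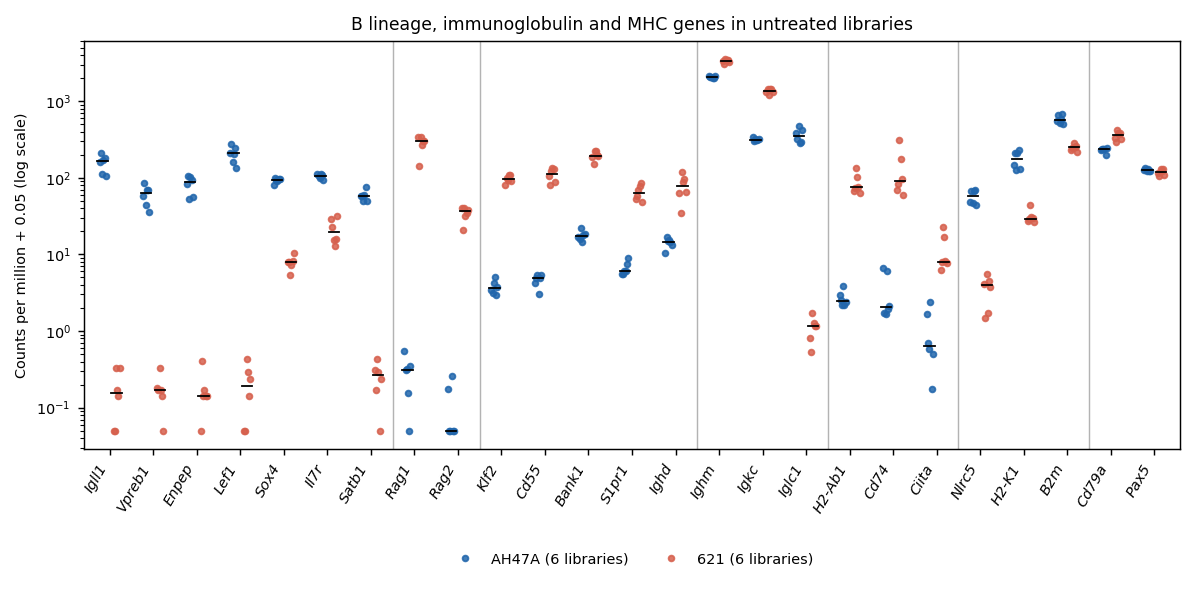
Levels of B lineage, immunoglobulin and MHC genes in each untreated library, as CPM plus 0.05 on a log axis; each point is 1 library, black lines are medians of 6 libraries per line, and grey lines separate gene groups. Igll1, Vpreb1, Enpep, Lef1 and Satb1 are near the bottom of the axis in 621, Rag1 and Rag2 are near it in AH47A, and Pax5 overlaps between the lines.

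The surrogate light chain and its companions were present in AH47A and nearly without counts in 621. Of 18 pro-B and pre-B genes tested, 11 were lower in 621 and 5 higher, with 8 lower and 3 higher beyond 2-fold and a median log2 difference of -0.59. Igll1, a component of the surrogate light chain, was at 104 CPM in the lowest AH47A library, 164 at the median and 213 in the highest, against 0, 0.11 and 0.28 CPM in 621. The 2 sets of libraries lay far apart, with log2 -9.93 ± 0.17 (SE) and adjusted p = 1.63e-13. Vpreb1, its partner, ranged from 36 through a median of 63.5 to 84.5 CPM in AH47A and stayed at or below 0.28 CPM in every 621 library (log2 -8.73 ± 0.17, adjusted p = 2.79e-14). Vpreb2 has a near-identical sequence to Vpreb1, so that the split of reads between them is uncertain, and it had no count in any 621 library. Lef1, a WNT-pathway transcription factor of pro-B and pre-B cells, was at 133, 207 and 273 CPM (lowest, median, highest) in AH47A and at no more than 0.38 CPM in 621 (log2 -10.17 ± 0.16, adjusted p = 9.39e-14). In bulk RNA, fewer cells of a type and less RNA per cell cannot be told apart. Enpep, a peptidase of pre-B cells, followed with 53, 87.1 and 107 CPM in AH47A and at most 0.36 CPM in 621. Igll1, Vpreb1, Lef1 and Enpep passed the filter on low counts through the AH47A libraries only. They could therefore be counted only as lower in 621.

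Other genes of these stages were lower in 621 without being absent. Il7r, the receptor chain for the pre-B growth factor interleukin 7, was at 94.7, 107 and 113 CPM in AH47A and at 12.8, 19.5 and 31.4 CPM in 621 (log2 -2.36 ± 0.21, adjusted p = 1.13e-04). Sox4, a survival factor of early B cells, was at 80.1 to 98.4 CPM in AH47A and 5.26 to 10.3 CPM in 621, again without overlap (log2 -3.57 ± 0.10). Myb, needed in pro-B cells, differed less, at medians of 517 and 353 CPM (log2 -0.58 ± 0.05, adjusted p = 7.27e-08). Cd24a, a surface marker that declines as B cells mature, was lower by a log2 of 0.38 ± 0.04, at medians of 2384 and 1787 CPM. Dntt, the enzyme that adds bases at VDJ joins, was below 3 CPM in all libraries and its difference did not pass the test (adjusted p = 0.267). Of the 5 that were higher, Cd93, a marker of immature B cells, overlapped (54.0 to 266 CPM in AH47A, 150 to 494 CPM in 621, log2 1.99 ± 0.43, adjusted p = 0.0101). Kit, the stem cell factor receptor of pro-B cells, had no count in any of the 12 libraries.

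The recombinase went the other way. Rag1, which cuts immunoglobulin genes at their recombination signals, was at 143, 304 and 341 CPM (lowest, median, highest) in 621 and at 0, 0.26 and 0.50 CPM in AH47A. No library of one line came near the other, and the log2 difference was 10.16 ± 0.12 (SE, adjusted p = 3.21e-16). Its partner Rag2 was at 20.8, 36.3 and 40.6 CPM in 621, and the 6 AH47A libraries together held 3 counts. That made Rag2 550-fold higher in 621, with a 95% counting interval of 188 to 2668 that covers counting error only. Line 621 thus had RAG transcripts with next to none of the surrogate light chain, and AH47A the reverse. Within 621 the G280 library stood lowest for Rag1, at 143 CPM against 269 to 341 CPM in the other 5. Within AH47A the I192S and V170M libraries had the lowest Igll1 (111 and 104 CPM against 158 to 213 CPM) and the lowest Lef1 (158 and 133 CPM against 202 to 273 CPM).

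Promoters of 3 genes with opposite patterns are shown because these genes are known targets of E-proteins, which bind E-box motifs. The sequences are RefSeq promoters on GRCm38.p6, each from 250 bases before to 50 bases after the gene start, printed 5′ to 3′ on the gene's strand, with the motifs CAGCTG and CAGGTG on either strand in capitals. The gene start taken is the annotated 5′ end of the gene. Igll1 lies at chr16:16863936-16864235 (minus strand), Vpreb1 at chr16:16869206-16869505 (minus strand) and Rag1 at chr2:101649483-101649782 (minus strand).
Igll1: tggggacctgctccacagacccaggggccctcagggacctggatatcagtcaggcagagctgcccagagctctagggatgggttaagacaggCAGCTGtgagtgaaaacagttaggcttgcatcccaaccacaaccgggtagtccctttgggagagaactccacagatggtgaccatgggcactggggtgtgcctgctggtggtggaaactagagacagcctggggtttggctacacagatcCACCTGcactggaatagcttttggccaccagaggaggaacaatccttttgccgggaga
Vpreb1: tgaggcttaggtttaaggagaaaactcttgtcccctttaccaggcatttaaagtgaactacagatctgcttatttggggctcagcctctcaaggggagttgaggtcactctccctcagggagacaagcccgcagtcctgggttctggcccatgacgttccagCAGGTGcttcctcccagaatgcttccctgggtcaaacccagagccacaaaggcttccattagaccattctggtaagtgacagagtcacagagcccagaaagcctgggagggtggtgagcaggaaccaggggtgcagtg
Rag1: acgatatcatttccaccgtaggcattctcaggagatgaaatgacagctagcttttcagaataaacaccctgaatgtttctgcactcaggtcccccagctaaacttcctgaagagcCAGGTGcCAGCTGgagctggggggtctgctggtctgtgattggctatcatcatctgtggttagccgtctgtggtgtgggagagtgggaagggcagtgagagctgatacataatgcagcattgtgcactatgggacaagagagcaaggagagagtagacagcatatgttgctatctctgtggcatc
Igll1 holds 1 CAGCTG and 1 CAGGTG (here as its other strand), Vpreb1 holds 1 CAGGTG, and Rag1 holds 1 of each, separated by a single base. The motif CAGCTG occurs in 16.1% and CAGGTG in 20.05% of the 27025 RefSeq gene promoters of this length, on either strand. The EBF motif, searched as a fixed palindrome, was in none of these 3 promoters and in 0.899% of all. The promoters of Lef1, high in AH47A, and Rag2, high in 621, were searched in the same way and held neither E-box motif. Lef1 has 4 listed promoters, and only that at the gene start was searched. Promoters with and without these letters were thus found for genes of both patterns.

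Genes of the mature B cell were higher in 621. Of 21 tested, 16 were higher (11 beyond 2-fold) and 3 lower (none beyond 2-fold), and the median log2 difference was 1.52. Cd55, a complement regulator on mature B cells, was at 79.4, 113 and 135 CPM in 621 and at 2.99, 4.87 and 5.34 CPM in AH47A (log2 4.59 ± 0.14, adjusted p = 1.2e-09). Bank1, a scaffold of B cell receptor signalling, was at 149 to 222 CPM in 621 and 14.4 to 22 CPM in AH47A (log2 3.48 ± 0.08). S1pr1, the sphingosine-1-phosphate receptor that guides exit from tissue, was at 48.8 to 86.2 CPM in 621 and 5.47 to 9.04 CPM in AH47A (log2 3.31 ± 0.13). None of these 3 genes, taken from the largest differences of the list, overlapped between the lines. Over the list 18 of 21 genes did not overlap, against 45% of all genes tested. Ltb and Ms4a1 of this list had 0 and 10 counts over the AH47A libraries and passed the filter through 621 only. They could therefore enter the counts of the list only as higher in 621. Ighd, the constant region of IgD, was at 34.6, 77.1 and 118 CPM in 621 and at 10.5, 14.6 and 16.7 CPM in AH47A (log2 2.40 ± 0.25, adjusted p = 2.06e-04). Tnfrsf13c, the receptor for the survival factor BAFF, was at a median of 81.2 CPM in 621 and 27.8 CPM in AH47A. Several mature genes were low in both lines even where they differed: Ms4a1, which encodes CD20, reached 8.83 CPM at most, and Cd40, the receptor for T cell help, 4.35 CPM. Fcer2a and Cr2, markers of follicular and marginal zone B cells, stayed below 2 CPM in all 12 libraries. Among the exceptions Cd72, an inhibitory co-receptor, was lower in 621, at medians of 115 and 256 CPM (log2 -1.14 ± 0.09). Line 621 had RAG, IgD and MHC class II transcripts together, with next to none of the surrogate light chain. AH47A had surrogate light chain transcripts together with counts on lambda light chain genes, described below. Whether either set of transcripts belongs to a single stage was not tested, and no stage is assigned to the lines here.

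Transcription factors of the lineage split in both directions, with 14 of 39 higher in 621 and 22 lower (median log2 -0.26). Klf2, which keeps lymphocytes quiescent and drives S1pr1, was at 79.3, 96.6 and 108 CPM in 621 and at 2.91, 3.54 and 5.06 CPM in AH47A (log2 4.68 ± 0.09, adjusted p = 3.28e-14). Satb1, a chromatin organiser of lymphoid progenitors, showed the reverse, at 49.2, 58.1 and 76.7 CPM in AH47A and no more than 0.38 CPM in 621 (log2 -8.12 ± 0.18). Bcl11a, needed for early B cell development, was at 81.2 to 129 CPM in AH47A and 6.71 to 34.7 CPM in 621. Foxo1, which drives Rag and Il7r transcription in B cell precursors, was higher in 621 (medians 110 and 39.9 CPM, log2 1.48 ± 0.05), and Ebf1, which opens the B cell programme, was lower (76.6 and 135 CPM, log2 -0.83 ± 0.08). Of 8 germinal centre and plasma cell genes tested none was higher and 6 were lower. One of these was S1pr2, a receptor that confines cells to germinal centres, at medians of 4.68 CPM in 621 and 18.1 CPM in AH47A. Irf4, at medians of 370 and 417 CPM, did not pass the test (adjusted p = 0.241).

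A different immunoglobulin variable segment held nearly all counts in each line. Variable segments are near-identical within families and the counting rules are not known, so that a segment names a likely source of reads, not a sequence. In AH47A, Ighv5-2 held 99.6% of the heavy chain variable counts, ranging over libraries from 99.3% to 99.7%. In 621, Ighv10-3 held 99.3% (99.1% to 99.4%), and it had no count in AH47A, which makes it at least 3831-fold higher in 621 against a floor of 3 counts over the AH47A libraries. The light chains differed in class. AH47A expressed lambda: Iglv1 was at 167 to 316 CPM and Iglc1 at 282, 350 and 468 CPM, against at most 5.27 and 1.69 CPM in 621. Line 621 expressed kappa, with Igkv19-93 at 533, 650 and 678 CPM against 0.89 to 2.68 CPM in AH47A. Counts on the kappa constant region, Igkc, were not absent from AH47A: they were at 305, 315 and 345 CPM there and at 1199, 1368 and 1442 CPM in 621 (log2 2.08 ± 0.05, adjusted p = 1.94e-13). Ighm, the constant region of IgM, was at 2006 to 2154 CPM in AH47A and 3074 to 3514 CPM in 621.

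Besides Igkv19-93, the 621 libraries held low counts on many other kappa segments, and a different one led in nearly every library. Igkv4-79 was at 17.8 CPM in the I192S library and at 1.21 CPM or less in the other 5 libraries of 621. Igkv8-28 was at 20.9 CPM in the R246Q library and at most 1.93 CPM elsewhere in the line. Smaller leads were held by Igkv4-60 in the control (6.69 CPM), by Igkv4-55 in R270H (4.69 CPM) and by Igkv8-19 in V170M (4.87 CPM). These smaller leads rest on 50 to 52 counts each. Summed over the 621 libraries the largest minor segment was Igkv8-27, with 250 counts, and it led in no single library. The leading minor segment of the G280 library, Igkv1-88, was not its own, since it was at 2.83 to 5.20 CPM in the other 5. Of the segments other than the leading one, 33 to 49 had at least 3 counts in a 621 library, against 9 to 16 in an AH47A library. Thinned to 6739686 counts per library, the expected numbers were 29.3 to 41.9 and 8.37 to 12.4. The G280 library, which had the lowest Rag1, also had the fewest such segments in 621.

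**Figure D2:**
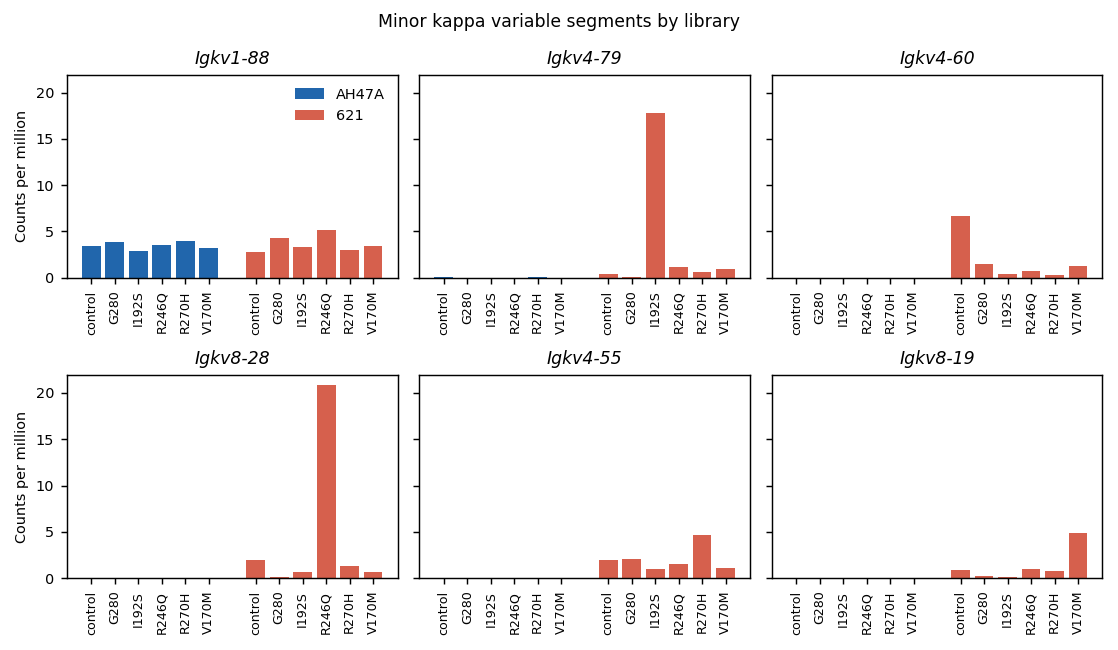
Levels of 6 minor kappa variable segments in CPM, 1 bar per library, blue for AH47A and red for 621, with the construct under each bar. Igkv4-79 and Igkv8-28 each stand out in a single 621 library, at 17.8 and 20.9 CPM, while Igkv1-88 is at a similar level in all 12.

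The genes for presenting peptides moved in opposite directions by class. MHC class II, which presents to helper T cells, was higher in 621 in 10 of 13 genes tested (9 beyond 2-fold) and lower in 2, with a median log2 difference of 3.26. H2-Ab1, a beta chain, was at 63.8, 75 and 133 CPM in 621 and 2.14, 2.42 and 3.82 CPM in AH47A (log2 4.99 ± 0.12, adjusted p = 2.44e-12). Cd74, the invariant chain, was at 59.7, 89.5 and 307 CPM in 621 and 1.60, 1.98 and 6.64 CPM in AH47A (log2 5.18 ± 0.43, adjusted p = 1.23e-04). Ciita, the co-activator that switches these genes on, was at 6.17, 7.99 and 22.6 CPM and at 0.13, 0.59 and 2.37 CPM. The lines did not overlap in any of these 3. Over the list 11 of 13 genes did not overlap, against 45% of all genes tested. Ciita passed the filter on low counts through the 621 libraries only, so it could be counted only as higher. Line 621 was spread: the I192S library was highest for Cd74, Ciita and H2-Ab1 and the R246Q library next (176, 17 and 103 CPM). The 2 members that were lower, Rfx5 and Rfxap, encode subunits of the DNA-binding complex that recruits Ciita and each had a log2 difference of -0.22.

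The promoter of H2-Aa, an alpha chain at a median of 9.50 CPM in 621 and 0.93 CPM in AH47A, is shown as an example of the class; it lies at chr17:34287774-34288073 (minus strand, GRCm38.p6, RefSeq). The capitals mark CCAAT, here as its other strand, the core of the Y box of MHC class II promoters.
H2-Aa: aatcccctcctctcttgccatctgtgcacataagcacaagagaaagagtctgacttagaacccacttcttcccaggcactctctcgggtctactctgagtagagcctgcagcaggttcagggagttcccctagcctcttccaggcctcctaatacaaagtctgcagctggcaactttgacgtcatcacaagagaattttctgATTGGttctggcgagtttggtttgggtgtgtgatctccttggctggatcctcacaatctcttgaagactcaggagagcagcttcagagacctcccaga
The same letters are in 38.0% of all 27025 promoters, on either strand. A fixed X-box spelling, CCTAGCAAC, was not in this window and is in 0.858% of promoters. Other spellings were not searched, so this does not show that the promoter lacks an X box.

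MHC class I, which presents to cytotoxic T cells, was lower in 621 in 10 of 20 genes tested (6 beyond 2-fold) and higher in 3 (none beyond 2-fold), with a median of -0.29. H2-K1, a classical heavy chain, was at 127, 178 and 230 CPM in AH47A and 26.6, 29.3 and 43.7 CPM in 621 (log2 -2.47 ± 0.21, adjusted p = 8.8e-05). H2-D1, the other classical chain of the reference haplotype, was at medians of 93.3 and 33.6 CPM, and B2m, the shared light chain, at 569 and 249 CPM (log2 -1.22 ± 0.07). Nlrc5, the co-activator of class I genes as Ciita is of class II, was at 44.4 to 69.1 CPM in AH47A and 1.44 to 5.54 CPM in 621 (log2 -3.97 ± 0.28). None of these 4 overlapped, and over the list 10 of 20 genes did not, against 45% of all genes tested. Class I genes resemble one another and the annotated alleles are those of the reference strain, so that the split of reads among them is uncertain. The non-classical H2-T23 was higher in 621 (log2 1.07 ± 0.08), and Psmb9, Psmb10 and Tapbp of the loading machinery did not pass the test (mean CPM in AH47A and 621 of 13.9 and 12.8, 35.3 and 38.0, and 47.4 and 44.2).

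Of the surface receptors tested, more were higher in 621 than lower. In the adhesion and surface list 25 of 44 genes were higher and 14 lower (median log2 0.50), in the chemokine and lipid receptor list 9 of 12 were higher and 3 lower (1.32), and in the costimulation list 7 of 11 were higher and 3 lower (0.95). Itgb7, Cd2, Gpr132, Cnr2, Cd86 and Cd40 passed the filter on low counts through the 621 libraries only, so they could be counted only as higher. Epha2 passed it through the AH47A libraries only and could be counted only as lower. Itgb7, an integrin beta chain for homing to gut, was at 54.1, 76.6 and 96.1 CPM in 621 and at most 0.39 CPM in AH47A (log2 8.74 ± 0.17, adjusted p = 2.41e-14). Cd2, an adhesion receptor of mouse B and T cells, was at 68.6, 91.2 and 114 CPM in 621 and at most 0.74 CPM in AH47A (log2 7.59 ± 0.11). Icam1, the ligand of LFA-1, was at 34.8 to 45.3 CPM in 621 and 0.67 to 3.72 CPM in AH47A. In the other direction, Itgav, an integrin alpha chain, was at medians of 25.7 CPM in 621 and 93.1 CPM in AH47A, and Slamf7, a self-binding receptor of activated lymphocytes, at 134 and 442 CPM. Epha2, a receptor of ephrins, was at 17.4 to 22 CPM in AH47A and at most 1.31 CPM in 621.

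Among receptors for soluble ligands, Gpr132, a lipid-sensing receptor, was at 31.0 to 50.1 CPM in 621 and at most 0.74 CPM in AH47A. Cnr2, the cannabinoid receptor of B cells, had 3 counts over all AH47A libraries and was 105-fold higher in 621 (95% counting interval 35.6 to 510). S1pr4 was at 62.1 to 69.0 CPM in 621 and 5.6 to 8.46 CPM in AH47A (log2 3.21 ± 0.07). Ptger4, a prostaglandin E2 receptor, was reversed, at a median of 2.05 CPM in 621 and 16 CPM in AH47A. Il10ra and Il4ra, receptor chains for interleukins 10 and 4, were at medians of 48.6 and 54.5 CPM in 621 and 5.12 and 13.1 CPM in AH47A. Cxcr4, the receptor that holds precursors in marrow, differed by a log2 of 0.20 ± 0.06 with overlapping libraries, a call (adjusted p = 0.0163) that was lost without the I192S or the V170M pair (adjusted p = 0.0590 and 0.0684). Cd86, a ligand for T cell costimulation, was at 7.96 to 13.4 CPM in 621 and at most 0.38 CPM in AH47A, and Btla, an inhibitory receptor, was at medians of 83.4 and 13.4 CPM (log2 2.56 ± 0.07).

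Of 28 genes of receptor signalling 20 were higher in 621 and 3 lower (median log2 0.43). The 3 that were lower were Lck, a Src-family kinase best known from T cells (18.3, 22.9 and 32.1 CPM in AH47A, at most 0.66 CPM in 621), Zap70, its T cell partner kinase (2.51 to 5.08 and at most 0.24 CPM), and Pik3ap1, an adaptor to PI3K (medians 252 and 91.7 CPM). Prkcb, the protein kinase C isoform that links the receptor to NF-kB, was at 155, 182 and 224 CPM in 621 and at 7.41, 13.1 and 28.8 CPM in AH47A (log2 3.65 ± 0.28, adjusted p = 8.25e-05). Syk, the proximal kinase, was at medians of 524 and 305 CPM (log2 0.78 ± 0.04). Cd79a of the receptor's signalling chains was higher in 621 (log2 0.61 ± 0.08), and Cd79b did not pass the test (log2 0.11 ± 0.06, adjusted p = 0.141).

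The RAS and MAPK list was split: 18 of 39 genes were higher in 621 and 11 lower, with a median of 0.15. Rasgrp1, which loads RAS with GTP downstream of antigen receptors, was at 82.1, 104 and 109 CPM in 621 and 0.10, 0.32 and 0.53 CPM in AH47A (log2 8.25 ± 0.13, adjusted p = 3.14e-15). Dusp6, a phosphatase induced by ERK and acting on it, was at 13.7, 31.1 and 49.4 CPM and at no more than 0.38 CPM. Dusp5, its nuclear relative, was at medians of 50.3 and 2.39 CPM, Spry1, an inhibitor of RAS signalling, at 12.7 and 0.76 CPM, and Etv5, an ERK-induced transcription factor, at 38.7 and 2.56 CPM. None of these 5 genes, taken from the largest differences of the list, overlapped between the lines. Over the list 22 of 39 genes did not overlap, against 45% of all genes tested. Rasgrp1, Dusp6 and Spry1 passed the filter on low counts through the 621 libraries only. They could therefore enter the counts of the list only as higher in 621. Nras, one of the RAS proteins, was lower in 621 (log2 -0.78 ± 0.08), as was Rasal1, which switches RAS off (medians 17.4 and 76.3 CPM).

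NF-kB genes were higher in 621 in 25 of 33 cases and lower in 1 (median log2 0.39). Of the 25, 23 are not among the genes of chromosome 12, a chromosome described below. Among its target cytokines, Tnf was at 3.37, 6.18 and 7.51 CPM in 621 with 2 counts over all AH47A libraries, a 138-fold difference (95% counting interval 38.0 to 1146). Ltb and Lta, which form lymphotoxins, had no count in AH47A and were at least 70.5-fold and 31.2-fold higher in 621. Tnf, Ltb and Lta passed the filter on low counts through the 621 libraries only, so they could enter the list's count only as higher. Nfkbia, the inhibitor that NF-kB induces, was at medians of 39.7 and 19.7 CPM, and Traf3, a brake on the non-canonical arm, at 325 and 146 CPM; both lie on chromosome 12. The 1 gene that was lower was Tnfaip3, the deubiquitinase A20 that ends the signal, at medians of 0.75 CPM in 621 and 2.58 CPM in AH47A (log2 -1.81 ± 0.29, adjusted p = 9.27e-05).

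The PI3K list was split, with 13 of 39 genes higher in 621 and 15 lower (median -0.07). The gamma isoform used downstream of G-protein-coupled receptors was higher with both of its regulatory subunits: Pik3cg was at medians of 102 and 12.4 CPM, Pik3r5 at 24.9 and 1.47 CPM, and Pik3r6 had 3 counts over all AH47A libraries and was 123-fold higher in 621 (95% counting interval 41.8 to 599). Irs1, an adaptor for insulin-type receptors, was lower (medians 1.98 and 24.2 CPM, log2 -3.59 ± 0.17), as was Pik3cb, the beta catalytic subunit (mean CPM 1.18 in 621 and 8.76 in AH47A). Mtor, the growth kinase, was at 233, 274 and 280 CPM in 621 and 582, 706 and 830 CPM in AH47A (log2 -1.40 ± 0.10, adjusted p = 6.78e-06). The JAK kinases differed in opposite senses: Jak1 was higher in 621 (322 and 110 CPM, log2 1.52 ± 0.05) and Jak2 lower (26.2 and 90.2 CPM, log2 -1.78 ± 0.08).

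In the Notch list 15 of 26 genes were higher in 621 and 9 lower (median log2 0.35). The receptor Notch2, which directs marginal zone fate, was at medians of 253 and 164 CPM (log2 0.65 ± 0.04), and Notch1 at 34.9 and 42.2 CPM (log2 -0.34 ± 0.06). Of the direct targets, Hey1 was at 3.71, 11.6 and 13.5 CPM in 621 and at most 0.52 CPM in AH47A, Nrarp at medians of 10.5 and 1.98 CPM and Hes1 at 29.3 and 9.90 CPM, while Dtx1, another target, was lower (9.23 and 14.8 CPM, log2 -1.15 ± 0.30, adjusted p = 0.0123). A pair of receptors for bone morphogenetic proteins was lower in 621: Acvr1 had no count there and was at least 182-fold higher in AH47A, and Bmpr2 was at medians of 3.96 and 36.2 CPM. The list of WNT and TGF-beta genes had 10 of 30 higher and 11 lower, with a median of -0.06. Of 25 JAK and STAT genes 7 were higher and 9 lower (median 0.04), and of 24 interferon-response genes 12 were higher and 5 lower (0.33).

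**Figure D3:**
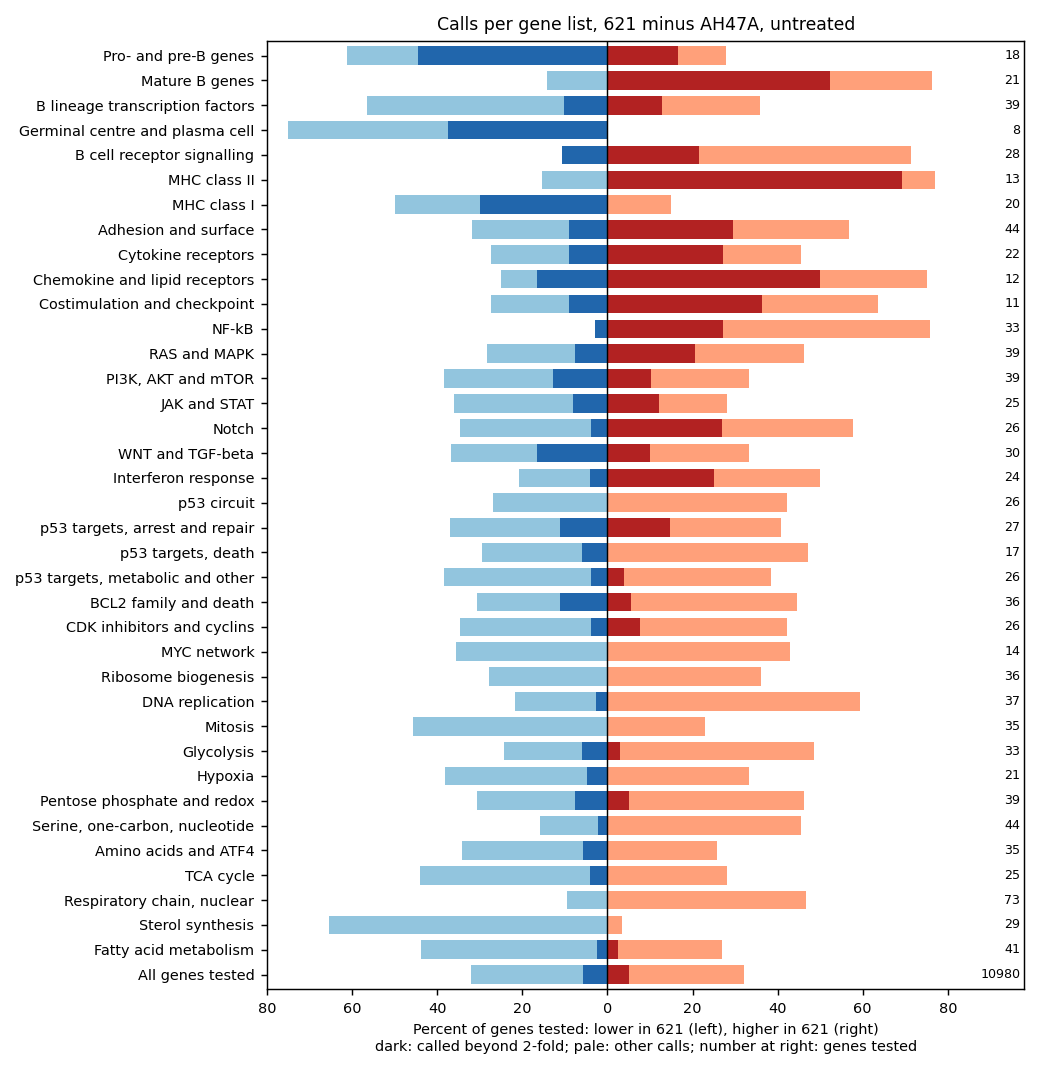
Share of the tested genes of each list that were lower (left, blue) or higher (right, red) in 621, in percent, with calls beyond 2-fold in the dark shade and the number of genes tested at the right. The bottom bar gives all 10980 genes tested, 32.1% of them in each direction; MHC class II and mature B genes reach far to the right in the dark shade and pro- and pre-B genes to the left.

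The p53 circuit itself was close between the lines before nutlin. Of 26 genes of the circuit 11 were higher in 621 and 7 lower, none beyond 2-fold, with a median log2 difference of 0.04. Counts on Trp53 can hold endogenous and construct transcripts. They were at 214 CPM in the AH47A control library and at 203 CPM in the 621 control, against 877 to 1052 CPM and 678 to 1363 CPM in the mutant-expressing libraries. Over all 6 pairs the difference was log2 0.01 ± 0.18 (adjusted p = 0.979), and the libraries of the lines overlapped. Mdm2, the ligase that degrades p53, was at 76.3, 83.6 and 86.6 CPM in 621 and 73.3, 76.0 and 79.9 CPM in AH47A, overlapping ranges. Its call (log2 0.12 ± 0.05, adjusted p = 0.0353) was lost in DESeq2 (adjusted p = 0.159) and without any of the G280, I192S, control or R270H pairs (0.0735 to 0.122). Mdm4, the related inhibitor of p53, was higher in 621 without overlap, at medians of 166 and 116 CPM (log2 0.50 ± 0.04, adjusted p = 2.02e-07). The ligases Cop1 and Rchy1 were also higher (mean CPM 32.3 and 21.0, and 17.4 and 12.1). Cdkn2a, the source of ARF and p16, was at 0.31 CPM or less in every library and was not tested.

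Individual p53 targets differed in both directions. Of 27 arrest and repair targets 11 were higher in 621 and 10 lower (median 0.06), and of 17 death targets 8 were higher and 5 lower (0.16). Cdkn1a, the CDK inhibitor p21, was at 2.34, 3.29 and 6.30 CPM in 621 and at 0.25, 0.63 and 1.13 CPM in AH47A (log2 2.44 ± 0.27, adjusted p = 2.72e-06). In each line its highest library was the control, the only one without a mutant construct. In AH47A the gene had 31 counts over all 6 libraries, so the order of those libraries is uncertain. Zmat3, an RNA-binding p53 target, was at 195 CPM in the 621 control against 83.2 to 106 CPM in the mutant libraries of that line, and at 43.7 to 63.7 CPM in AH47A (log2 1.04 ± 0.11). Ccng1 and Bax, a cyclin that feeds back on p53 and a death effector, were higher in 621 by log2 0.46 ± 0.05 and 0.42 ± 0.05. Bbc3 (PUMA) and Pmaip1 (NOXA), the BH3-only p53 targets, were higher as well (medians 14.2 and 7.95, and 4.50 and 2.27 CPM), with overlapping libraries in both.

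Other targets were lower or nearly missing in 621. Plk2, a polo-like kinase, was at 6.22, 8.67 and 12.3 CPM in AH47A and at most 0.48 CPM in 621 (log2 -5.01 ± 0.29, adjusted p = 2.8e-09). Gadd45g, a stress sensor, was at 15.4, 17.2 and 32.0 CPM in AH47A and at most 0.94 CPM in 621, and its relative Gadd45b at medians of 17.7 and 3.8 CPM. Casp1, the inflammasome protease, had 3 counts over all 621 libraries and was 76.4-fold higher in AH47A (95% counting interval 25.7 to 373). Ephx1, an epoxide hydrolase, was at 4.44 to 24.7 CPM in AH47A and at most 0.56 CPM in 621. In the BCL2 family, Bcl2 (17.8 and 10.2 CPM, log2 0.87 ± 0.12) and Mcl1 (357 and 281 CPM, log2 0.35 ± 0.04) were higher in 621, and Bcl2l1, which encodes BCL-XL, was lower (3.88 and 5.95 CPM, log2 -0.63 ± 0.16). Bcl2l2, which encodes BCL-W, was at 1.65 to 11.1 CPM in AH47A and at most 0.38 CPM in 621.

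**Figure D4:**
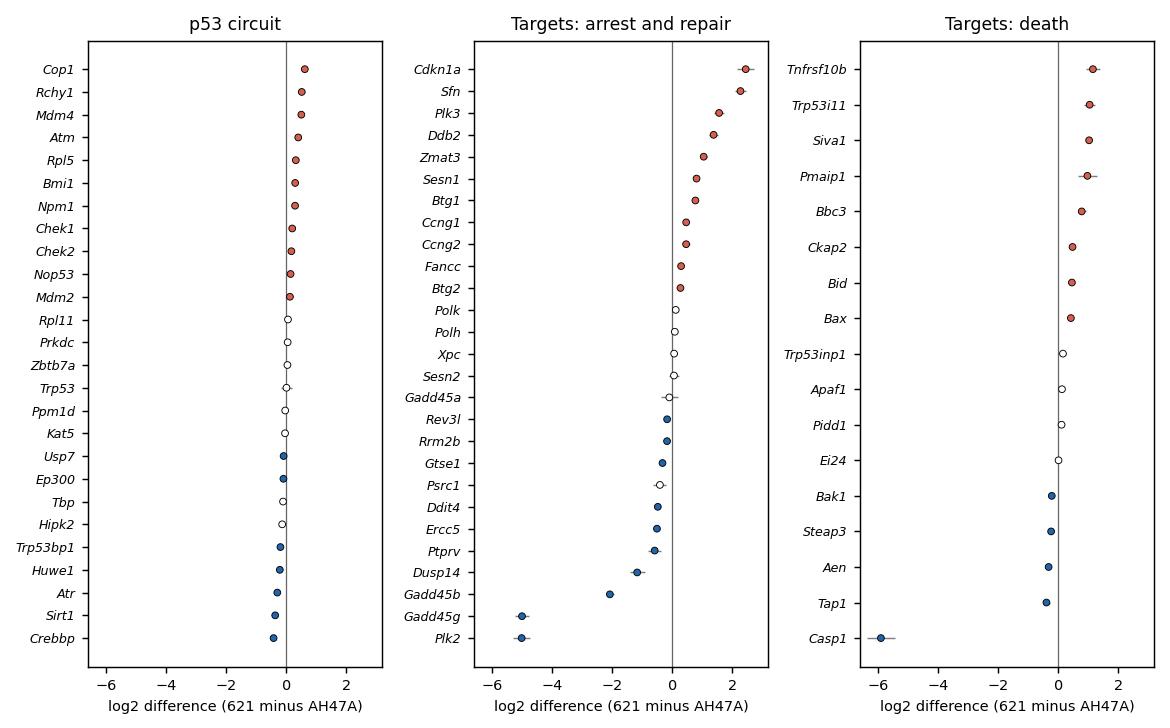
Log2 difference between 621 and AH47A, untreated, for the tested genes of the p53 circuit and of 2 lists of p53 targets; bars are standard errors, red points were called higher in 621, blue points lower, and white points were not called. All points of the circuit lie within 1 of zero, while Plk2 and Gadd45g lie at -5.01 and -5.00.

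Cell cycle genes differed in their D cyclins. Ccnd2 was at 33.9, 49.1 and 50.7 CPM in 621 and at 1.48, 2.20 and 5.86 CPM in AH47A (log2 4.05 ± 0.20, adjusted p = 1.31e-07), and Ccnd1 at medians of 338 and 171 CPM (log2 0.97 ± 0.04). Their partner Cdk6 was lower in 621, at 33.8 and 63.8 CPM. Among 37 DNA replication genes 22 were higher and 8 lower (median 0.15), and among 35 mitotic genes 8 were higher and 16 lower (-0.06). Counts on Myc, transgene included, were at 3644 to 4108 CPM in 621 and 3271 to 3846 CPM in AH47A. Their difference (log2 0.12 ± 0.05, adjusted p = 0.0311) lost its call without any of the G280, I192S, R246Q or R270H pairs. Of 36 ribosome biogenesis genes, which MYC drives, 13 were higher and 10 lower, none beyond 2-fold (median 0.05).

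Metabolic genes differed mostly by small amounts. Of 29 sterol synthesis genes 19 were lower in 621 and 1 higher, none beyond 2-fold, and the median was -0.54, against -0.0046 over all genes. Hmgcs1, which makes the first committed intermediate, was at 174, 194 and 227 CPM in 621 and at 256, 337 and 360 CPM in AH47A (log2 -0.70 ± 0.07, adjusted p = 3.85e-06). Lss, which closes the sterol rings, was at medians of 53.4 and 99.7 CPM. The 1 that was higher was Ebp, a later isomerase (log2 0.33 ± 0.07). Desaturases of long fatty acids were lower too: Fads2 was at 11.7, 23 and 30.7 CPM in 621 and 133, 150 and 177 CPM in AH47A (log2 -2.82 ± 0.19, adjusted p = 1.7e-05), and Fads1 at medians of 40.5 and 84.8 CPM. Of 73 nuclear genes of the respiratory chain 34 were higher in 621 and 7 lower, none beyond 2-fold (median 0.14).

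For glucose use, 16 of 33 genes were higher in 621 and 8 lower (median 0.11). The glucose transporter Slc2a1 was at medians of 98.7 and 49.8 CPM (log2 1.05 ± 0.07), and Hk1, a hexokinase, at 15.4 and 35.6 CPM (log2 -1.40 ± 0.12). Slc16a3, the lactate exporter MCT4, was at 34.3 to 84.6 CPM in 621 and at 0.13 to 1.65 CPM in 5 AH47A libraries, but at 24.6 CPM in the R270H library of AH47A. Its log2 difference was 3.84 ± 0.85 (adjusted p = 0.0107), and 6.05 without the R270H pair. In redox metabolism Gsr, which regenerates glutathione, was at medians of 73.9 and 9.92 CPM (log2 2.81 ± 0.21), and Nnt, the mitochondrial source of NADPH, at 33.6 and 136 CPM (log2 -1.95 ± 0.05). In the one-carbon and nucleotide list 20 of 44 genes were higher and 7 lower (0.11), among them Mthfd1 (515 and 296 CPM) and Phgdh (212 and 134 CPM) higher and Tyms, thymidylate synthase, lower (15.6 and 36.1 CPM). Me3, a mitochondrial malic enzyme, had no count in 621 and was at least 81.9-fold higher in AH47A.

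Many of the widest differences lay outside these lists, in genes with no or few counts in 1 of the 2 lines. Scn8a, a voltage-gated sodium channel of neurons, was at 67.3 to 99.8 CPM in 621 with no count in AH47A, at least 1306-fold higher, and Slc25a13, a mitochondrial aspartate-glutamate carrier, was at 23.9 to 29.0 CPM with no count in AH47A, at least 425-fold higher. Tln2, which ties integrins to actin, had 2 counts over all AH47A libraries and 44.4 to 53.2 CPM in 621. In the reverse direction Cers6, a ceramide synthase, was at 39.7 to 45.0 CPM in AH47A and without a count in 621, at least 801-fold lower there, and Tanc1, a scaffold protein, at least 692-fold lower. Uaca, a regulator of apoptosome activity, was at 156 to 190 CPM in AH47A and at most 0.26 CPM in 621. Gja1, a gap junction protein, was at 63.7 to 205 CPM and at most 0.12 CPM, and Sulf2, which trims heparan sulfate, at 152 to 240 CPM and at most 0.56 CPM. These genes were picked as extremes with at least 20 CPM in every library of the higher line, so their separation follows from that choice.

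Chromosome 12 stood apart as a whole. The median log2 difference of its 406 tested genes was 0.51 (1.42-fold higher in 621), and 75.9% of them were called higher, against 32.1% of all genes. Over the 6 construct pairs the chromosome's median, relative to that of all genes in the pair, was 0.504 ± 0.016 (SD, n = 6), with a range of 0.486 to 0.528. In 8 windows of 50 consecutive genes along it the medians were 0.44 to 0.66, and in the 197 windows on other chromosomes they were -0.24 to 0.28. The next autosome was chromosome 19, at 0.15. Chromosome 12 carries Ighm, Ighd, Nfkbia, Traf3, Gpr132, Pik3cg and Mthfd1 of the genes above. Genes are not replicates, so these medians are a description with no test.

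Chromosome 19 varied between the AH47A libraries. Its median was 0.15 over all pairs, but 0.386 in the R246Q pair, 0.223 in the G280 pair and 0.205 in the control pair, against -0.026 to 0.029 in the other 3. The spread came from AH47A: the chromosome's median deviation from the line was -0.229 in R246Q, -0.086 in G280 and -0.075 in the control, and 0.091 to 0.120 in the others. In 621 no library deviated by more than 0.0123. Jak2, Fads1, Fads2, Dusp5 and Pik3ap1 lie on chromosome 19.

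**Figure D5:**
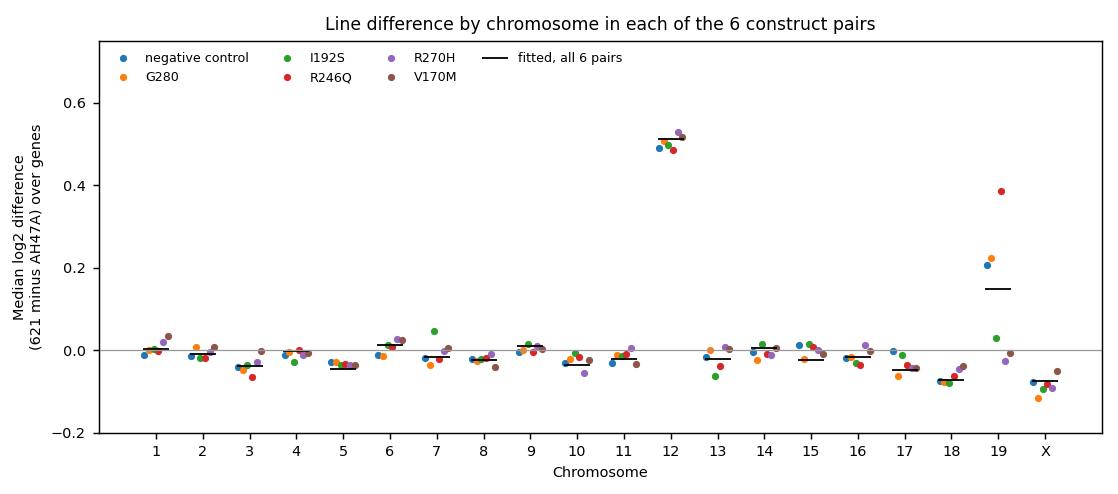
Median log2 difference between 621 and AH47A over the genes of each chromosome, relative to all genes, in each of the 6 construct pairs (points) and in the fit of all pairs (black line). Chromosome 12 lies at 0.486 to 0.528 in every pair, and chromosome 19 ranges from -0.026 to 0.386.

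Y-linked genes were expressed in AH47A and next to absent in 621. Ddx3y was at 71.1 to 76.8 CPM in AH47A and at most 0.28 CPM in 621, and Eif2s3y at 98.7 to 110 CPM against 3 counts over all 621 libraries. Xist, the RNA that silences an X chromosome, was at 2.76 to 5.47 CPM in AH47A and 3.10 to 4.23 CPM in 621, which did not pass the test (log2 -0.16 ± 0.18, adjusted p = 0.453), and at a mean of 2834 CPM in the line 287. Line 621 thus had neither the Y-linked transcripts of AH47A nor the Xist level of 287.

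The line 287 is given beside these values. In 287 the mean level (± SD, n = 6) was 73.7 ± 18.6 CPM for Rag1, 95.1 ± 51.8 CPM for Igll1 and 122 ± 45.0 CPM for Lef1, so that this line had RAG and surrogate light chain together. Cd74 was at 70.9 ± 32.2 CPM in 287, which did not pass the test against 621 (adjusted p = 0.128). H2-K1 was at 219 ± 24.3 CPM and Nlrc5 at 89.2 ± 12.6 CPM in 287. Rasgrp1 was at 8.29 ± 3.12 CPM, between AH47A (0.33 ± 0.15) and 621 (100 ± 10.2). Satb1 and Gja1, high in AH47A, were at 0.07 ± 0.09 and 0.13 ± 0.13 CPM in 287 and did not pass the test between 287 and 621.

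The nutlin-treated cultures of the same 2 lines, which share no library with the untreated ones, were tested in the same way: 5697 of 10917 genes (52.2%) were called there and 1037 (9.5%) beyond 2-fold. Of the 1182 genes beyond 2-fold before treatment 1091 were tested in the treated libraries, 1084 kept their direction and 848 were again beyond 2-fold. Called in the opposite direction were 3: Klf2 (log2 -1.25 ± 0.28, adjusted p = 0.00678), at means of 66.2 CPM in AH47A and 25.1 CPM in 621 after treatment, Cdkn1a (-0.48 ± 0.14, adjusted p = 0.0182), at 219 and 153 CPM, and Chac1 (0.40 ± 0.15, adjusted p = 0.0433), a glutathione-degrading stress gene. Rag1 (log2 9.41), Igll1 (-9.62), Cd74 (4.52) and Rasgrp1 (7.58) kept theirs.

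The line difference was also compared between the mutant-expressing pairs and the control pair, where each line has 1 control library. An adjusted p under 0.05 was reached by 3 genes (0.0273%), and 217 had an unadjusted p under 0.05. Akr1e1, an aldo-keto reductase, was at 6.43 CPM in the 621 control and 0.28 to 0.96 CPM in the other 621 libraries (log2 -3.49 ± 0.47, adjusted p = 0.0331). Myo10, a myosin of filopodia, was at 6.17 CPM in the 621 control and at most 0.47 CPM in the others (log2 -4.41 ± 0.50, adjusted p = 0.0126). Flt3, a receptor of lymphoid progenitors, was at 18.3 CPM in the AH47A control and 1.30 to 1.77 CPM in the others (log2 4.0 ± 0.45, adjusted p = 0.0126). All 3 rest on a single control library.

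Markers of other blood and stromal cells were low in both lines. Of 20 T cell markers 7 had no count in all 12 libraries, Cd3e, Cd4, Trbc1 and Trbc2 among them, and the list's summed level was 9.22 to 15.9 CPM in AH47A and 8.71 to 12.9 CPM in 621. Of 24 myeloid markers 9 had no count, among them Lyz1, S100a8 and C1qa, and the sum was 8.39 to 12.0 CPM in AH47A and 26.0 to 41.8 CPM in 621. Most of the latter was Fcgr3, a low-affinity Fc receptor, at 12.0 to 27.8 CPM in 621 and at most 1.34 CPM in AH47A. NK cell markers summed to at most 1.69 CPM in any library. The erythroid list summed to 510 to 567 CPM in AH47A and 663 to 799 CPM in 621, nearly all of it Tfrc, the transferrin receptor of dividing cells, with Gata1, Pf4, Ppbp and Gp9 at 0 counts. The stromal list summed to 63.8 to 85.3 and 63.2 to 79.3 CPM, most of it Pecam1, with Col1a2, Col3a1 and Vwf among the 8 of 16 at 0 counts. The part of these genes in the differences above was not tested.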

How the data were processed

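RNA-seq read counts per gene were deposited by the authors for 36 libraries, made with bcl2fastq 1.8.4 and featureCounts on mm10 or GRCm38, per the submitters' processing notes. No aligner, annotation or strand setting is named there. The 36 files of single libraries held the same counts as the table of the whole series. The gene length column of the deposited table was not used.

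The 12 untreated libraries of 621 and AH47A were fitted with edgeR 4.0.16 (R 4.3.3, TMM scaling, filterByExpr with a minimum count of 10). The quasi-likelihood F test had terms for line and construct, and p-values were adjusted by Benjamini-Hochberg over 10980 genes. Differences beyond 2-fold were tested with glmTreat against a log2 of 1. The construct term sets libraries of the same construct side by side. The genes tested held 99.9% of the counts, and the biological coefficient of variation was 6.99%. Within a line, counts of all 30 pairs of libraries differed beyond sampling noise (dispersion index 1.88 to 7.71). Ratios for genes with 1 to 3 counts in a line carry a 95% counting interval, and those with 0 counts use a floor of 3 counts over that line's libraries. Intervals and floors cover counting error only.

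Genes were named by a rule: the 15 highest and 15 lowest differences beyond 2-fold with at least 20 CPM in every library of the higher line, up to 6 called members of each list, and a fixed set; other list members may be named with their values. The report names part of that set, and some of its genes are not reported here. The members and lists were chosen with earlier results of these data known. Alternatives were other scalings, filters, sets of libraries, DESeq2 1.42.0, limma 3.58.1 (voom) and leaving out each construct pair. Gene names came from the deposited table, and 859 of 27179 IDs had no symbol.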

Additional observations from a re-analysis of the deposited data

Results flagged for a closer look

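In 24 of 282 sets of 6 libraries of a line, over the 180 genes examined, the highest or lowest library lay far from the others of its line (Dixon's ratio above its 95% critical value). Chance alone would mark about 1 in 20 independent sets. These sets share libraries and their genes were chosen with the data known, so 24 of 282 was not tested against that rate. In the G280 library of 621, Rag1 was at 143 CPM against 269 to 341 CPM in the other 5 and Cd93 was at 150 CPM against 399 to 494 CPM in the other 5 libraries. There, Ighv10-3 was at 215 CPM against 240 to 254 CPM in the other 5 and Cd79b was at 195 CPM against 251 to 278 CPM in the other 5 libraries. There, Hey1 was at 3.71 CPM against 11.3 to 13.5 CPM in the other 5 and Cdk6 was at 25.3 CPM against 32.9 to 37.2 CPM in the other 5 libraries. In the R270H library of AH47A, Cd93 was at 266 CPM against 54.0 to 119 CPM in the other 5 and Cd38 was at 29.5 CPM against 8.74 to 16.3 CPM in the other 5 libraries. There, Satb1 was at 76.7 CPM against 49.2 to 58.9 CPM in the other 5 and Cd79a was at 201 CPM against 228 to 241 CPM in the other 5 libraries. There, Gadd45g was at 32.0 CPM against 15.4 to 21.5 CPM in the other 5 and Hk1 was at 66.4 CPM against 31.5 to 36.3 CPM in the other 5 libraries. In the R246Q library of AH47A, Cd24a was at 2070 CPM against 2290 to 2409 CPM in the other 5 and Creb3l2 was at 7.74 CPM against 2.96 to 4.64 CPM in the other 5 libraries. In the I192S library of 621, Igkv19-93 was at 533 CPM against 640 to 678 CPM in the other 5 and H2-K1 was at 43.7 CPM against 26.6 to 30.7 CPM in the other 5 libraries. In the control library of AH47A, Igkc was at 345 CPM against 305 to 319 CPM in the other 5 and Trp53 was at 214 CPM against 877 to 1052 CPM in the other 5 libraries. There, Flt3 was at 18.3 CPM against 1.30 to 1.77 CPM in the other 5 libraries. In the R246Q library of 621, Pik3r5 was at 30.0 CPM against 22.9 to 25.3 CPM in the other 5 libraries. In the control library of 621, Zmat3 was at 195 CPM against 83.2 to 106 CPM in the other 5 and Ccng1 was at 115 CPM against 80.5 to 89.3 CPM in the other 5 libraries. In the G280 library of AH47A, Ccnd2 was at 5.86 CPM against 1.48 to 2.94 CPM in the other 5 libraries. In the V170M library of 621, Ebp was at 37.3 CPM against 30.2 to 32.5 CPM in the other 5 libraries. The line difference differed between mutant-expressing pairs and the control pair, by the interaction test, for Akr1e1 (log2 -3.49), Myo10 (-4.41) and Flt3 (4.0), each with 1 control library per line.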

How the results depend on the processing

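No direction of any result reversed under the alternatives run. Leaving out 1 construct pair at a time gave 6554 to 6956 genes called (3228 to 3434 higher, 3241 to 3522 lower) and 1146 to 1182 beyond 2-fold (532 to 558 higher, 604 to 649 lower), against 7053 and 1182. The stricter filter of 50 counts in each of 6 libraries left 9400 genes and 774 calls beyond 2-fold (379 lower), 769 of them shared with the 1182, since genes nearly absent from one line were removed. With no filter there were 1671 calls beyond 2-fold, with DESeq2 998 and with limma-voom 1067. The share of higher among called genes was 47.6% to 50.6% over the settings. Without the replicate block 7223 genes were called and 1191 beyond 2-fold, and no named gene changed its call. Libraries of the same construct did not deviate together over all genes (r -0.143 to 0.122, and 0 of 6 had its own construct as best partner). These correlations cannot show whether such libraries share a factor besides the construct. At 10 CPM or more the median log2 difference of chromosome 12 was 0.536 and that of chromosome Y -9.81. Leaving out the 406 genes of chromosome 12, an alternative chosen after seeing the data, dropped those genes from the calls with no new fit. Of the genes higher in 621, 14 of 16 mature B, 12 of 15 Notch and 23 of 25 NF-kB genes are not among the 406. Both immunoglobulin heavy chain constant regions tested are among them. Among named genes, the calls of Mdm2, Myc and Cxcr4 were lost in the fit of all 36 libraries. The fitted log2 difference of Ms4a1 was 4.95 without the G280 pair (4.30 with it), and that of Gpr132 was 8.04 without the V170M pair (7.38 with it). At this depth, genes at a few counts per library allow only ratios with wide counting intervals or lower bounds.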

Other observations

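Chromatin remodellers were among the other genes that differed. Of 35 epigenetic regulators tested, 10 were higher in 621 and 16 lower, with a median log2 difference of -0.08. Smarca2, which encodes the BRM ATPase of the SWI/SNF complex, was at 93.9, 116 and 132 CPM (lowest, median, highest) in 621 and at 13.3, 18.1 and 29.1 CPM in AH47A (log2 2.59 ± 0.13, SE). Smarca4, which encodes the alternative ATPase BRG1, was lower in 621, at 690 to 786 CPM against 1428 to 1522 CPM (log2 -0.96 ± 0.04). Neither gene overlapped between the lines, as was so for 20 of the 35 and for 45% of all genes tested.

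Sensors of foreign RNA split in the same way. Ifih1, which encodes MDA5, was at 3.63 to 6.64 CPM in AH47A and 0.09 to 0.39 CPM in 621 (log2 -4.52 ± 0.31). Ddx58, which encodes RIG-I, was at 0.25 to 2.73 CPM in AH47A and 6.56 to 13.1 CPM in 621 (log2 2.94 ± 0.36). Tmem173, which encodes the DNA-sensing adaptor STING, was higher in 621 as well, at medians of 58.9 and 17.8 CPM (log2 1.73 ± 0.06).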
